A study of Mus musculus with 6 samples.

Results

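The osteocalcin genes Bglap, Bglap2 and Bglap3, together with Enpp2, were followed in the fibroblasts of the mouse bladder mucosa. The 4 genes were taken as listed and matched by Ensembl identifier, out of 14450 genes listed in the tables of all 6 libraries, and they were selected on the level of Bglap2, which leads a group of bladder fibroblasts in these data. Differences in Bglap2 between cell classes are therefore described without a test. The libraries came from the bladder mucosal layer of wild type C57BL/6 mice aged 8 weeks, 2 libraries from healthy mice, 2 from mice taken 48 h after cyclophosphamide (CPP; acute injury) and 2 from mice given 4 rounds of CPP over 11 days (chronic injury). According to the study's methods, mice of both sexes were used and several bladders were taken per condition. The methods also give a lower dose per injection for chronic than for acute injury, and a harvest 48 h after the last injection in both. Each library is 1 replicate, and as the labels do not say which mice entered it, the tests measure the spread between libraries. CPP is a chemotherapeutic drug whose metabolites in the urine damage the bladder lining.

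Osteocalcin is a small secreted protein of the bone matrix, best known as a product of osteoblasts, in which glutamate residues are carboxylated in a vitamin K dependent reaction so that the protein binds calcium. In the mouse it is encoded by a cluster of neighbouring genes, of which Bglap and Bglap2 are the bone genes and Bglap3 is known as a gene expressed outside bone. Enpp2 encodes autotaxin, a secreted enzyme that makes the signalling lipid lysophosphatidic acid (LPA) from lysophosphatidylcholine, and it is known in many fibroblasts and in fat tissue. In the bladder, fibroblasts lie beneath the urothelium, which is the epithelium facing the urine, and next to them lie myofibroblasts with contractile genes such as Acta2.

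The 3 osteocalcin genes lie in a row on the minus strand of chromosome 3 in the genome build GRCm38 (mm10). Bglap3 occupies chr3:88368616-88372743, Bglap2 chr3:88377736-88378699 and Bglap chr3:88383501-88384464, each with 4 exons in the GENCODE M21 transcript used here. Enpp2 lies on chromosome 15, at chr15:54838901-54952892, also on the minus strand, with 25 exons. The coding sequences of the osteocalcin genes are all 288 bases long and are shown because their likeness limits how reads can be assigned to each gene. In the sequence of Bglap2 the capitals mark the 13 positions at which any of the 3 genes differ, and in the others they mark the bases that differ from Bglap2.
Bglap2: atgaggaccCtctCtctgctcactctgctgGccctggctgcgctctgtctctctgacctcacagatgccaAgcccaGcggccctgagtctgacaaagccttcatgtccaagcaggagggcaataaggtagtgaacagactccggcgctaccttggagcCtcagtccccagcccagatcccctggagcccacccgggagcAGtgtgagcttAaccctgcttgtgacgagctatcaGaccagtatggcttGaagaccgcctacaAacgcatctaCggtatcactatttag
Bglap: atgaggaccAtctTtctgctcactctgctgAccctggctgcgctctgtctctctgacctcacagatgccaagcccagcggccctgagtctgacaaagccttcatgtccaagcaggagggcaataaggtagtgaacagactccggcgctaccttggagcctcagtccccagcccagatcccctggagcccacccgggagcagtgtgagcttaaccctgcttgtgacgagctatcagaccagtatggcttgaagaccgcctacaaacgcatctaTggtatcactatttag
Bglap3: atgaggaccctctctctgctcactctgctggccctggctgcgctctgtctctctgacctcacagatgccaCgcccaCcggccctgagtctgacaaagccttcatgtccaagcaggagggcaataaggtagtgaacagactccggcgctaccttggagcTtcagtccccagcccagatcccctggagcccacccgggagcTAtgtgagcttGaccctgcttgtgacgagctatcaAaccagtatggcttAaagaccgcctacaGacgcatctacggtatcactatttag
Bglap differed from Bglap2 at 4 of 288 bases (98.6% identity) and Bglap3 differed from Bglap2 at 9 (96.9% identity). The read length is not given in the sources used here, and 90 bases were assumed. Of all windows of that length in the Bglap2 transcript, 36.6% were found in no other transcript outside the gene, and for Bglap the share was 39.6%. Among the last 300 windows of the transcript, where a 3′ assay reads, 30% were unique for Bglap2 and 30% for Bglap. For Bglap3, 95.2% of all windows and 100% of the last 300 were unique, and for Enpp2 all windows were unique. How reads from shared windows were counted is not described in the sources used here, and they may have been left out or given to either gene. The levels of Bglap and Bglap2, and the split of UMIs (unique molecular identifiers, 1 per captured mRNA molecule) between them, are therefore uncertain. Bglap3 and Enpp2 can be read on their own.

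The promoters given here are the 250 bases before the start in RefSeq (GRCm38.p6), shown because Bglap and Bglap3 lie in 1 gene cluster with Bglap2 and their levels correlated with its level over cell classes (0.82 and 0.79). Capitals mark matches on either strand. The first set of letters searched was TATAAA, a common core promoter element. The other was ACCACA, a core of sites that Runx factors bind. The entry used for Bglap3 is the upstream one of 3. Entries matched 2 of the 4 genes, Bglap (chr3:88384467-88384716, minus strand) and Bglap3 (chr3:88372742-88372991, minus strand).
Bglap promoter: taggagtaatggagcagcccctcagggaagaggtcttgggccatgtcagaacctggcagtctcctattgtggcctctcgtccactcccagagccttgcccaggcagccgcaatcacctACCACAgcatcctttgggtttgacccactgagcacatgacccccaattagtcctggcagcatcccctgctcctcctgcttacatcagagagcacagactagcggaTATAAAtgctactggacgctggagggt
Bglap3 promoter: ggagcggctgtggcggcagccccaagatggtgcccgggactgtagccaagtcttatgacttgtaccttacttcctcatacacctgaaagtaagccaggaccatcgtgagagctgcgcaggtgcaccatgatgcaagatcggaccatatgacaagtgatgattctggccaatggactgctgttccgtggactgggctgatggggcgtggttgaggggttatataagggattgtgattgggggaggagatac
The Bglap window held 1 match of each and the Bglap3 window held neither set of letters. Only these exact letters were searched, so related forms were not counted, such as the tatataag near the end of the Bglap3 window. The lack of a match is thus not read as the lack of an element. Among 32851 promoter windows of the same length, 12.4% held TATAAA and 14.0% held ACCACA.

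After the filters of the study, 55398 cells were left, and 50578 after the removal of 4469 called doublets and of 351 other cells in a cluster made up mostly of called doublets. The libraries held from 54604109 to 111985678 UMIs. Clustering with the 4 genes kept out gave 5276 fibroblasts and 4568 myofibroblasts. Fibroblasts numbered 828 and 1284 in the healthy libraries, 331 and 1710 in the acute libraries and 1098 and 25 in the chronic libraries. Chronic 2 thus rests on 25 fibroblasts with 79973 UMIs outside mitochondrial and ribosomal protein genes, in which 3 UMIs correspond to 37.5 CPM. CPM is the UMIs of a gene per 1000000 such UMIs of the class, over 14338 genes. All 7 measured fibroblast markers (Cd34, Mfap5, Pi16, Dpt, Clec3b, Scara5 and Pdgfra) had UMIs in the fibroblasts of every library, with a summed level of 10591 and 10061 CPM in healthy, 5948 and 5710 CPM in acute and 7612 and 3038 CPM in chronic libraries. In myofibroblasts the sum was 455 to 3583 CPM. Of the 10 macrophage markers, all had UMIs in the fibroblasts of chronic 2, where their sum was 1913 CPM against 51.8 to 153 CPM in the other libraries. Urothelial markers (11 of 11 detected in each library) summed to 757 and 3084 CPM in healthy fibroblasts, 832 and 2487 CPM in acute and 5007 and 2426 CPM in chronic ones, and the part of macrophage or urothelial RNA in the results below was not tested. Pairs of libraries shared from 36 to 229 cell barcodes, where random barcodes would give 50.1 to 229.8.

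The Bglap2 level was higher in fibroblasts than in each other class with at least 20 cells in all 6 libraries. In fibroblasts its level, in CPM of the UMIs summed over the cells of a library, was 223 and 548 in the healthy libraries, 1072.5 and 994 in the acute libraries and 2172 and 1300.4 in the chronic libraries. Its level in urothelial cells was 6.29 and 14.3 CPM in healthy, 27.2 and 15.6 CPM in acute and 46.3 and 25.3 CPM in chronic libraries. Macrophages held 4.17 to 64.7 CPM, and natural killer and T cells 8.41 to 24.6 CPM in the 3 libraries with at least 20 such cells. Endothelial cells held 0 to 106 CPM in 5 libraries, and mural cells 37.6 and 26.3 CPM in the acute libraries. In every library the fibroblast level lay above that of each of these classes, and the other classes did not keep one order over the libraries. A further 674 cells, clustered with the mesenchymal cells but led by urothelial genes such as Lmo7, Areg and Aqp3, were left unnamed, and held 17.3 and 181 CPM of Bglap2 in healthy, 400.3 and 208 CPM in acute and 984 and 452 CPM in chronic libraries.

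The 5276 fibroblasts made up 0.489% to 14.4% of the cells assigned to a class in a library, yet in 5 of the 6 libraries they held from 50.2% to 80.3% of the Bglap2 UMIs. In chronic 2, with its 25 fibroblasts, they held 10.5%, the unnamed cells 17.7% and urothelial cells 68.8%. Relative to fibroblasts, urothelial cells had a Bglap2 level of 1.57% to 2.82%. The same ratio for the 7 fibroblast markers, which urothelial cells should lack, ran from 0.283% to 4.27%. In acute 2, chronic 1 and chronic 2, Bglap2 lay above 6 of the 7 markers and below the highest, which was Pdgfra in acute 2 (4.27%) and Pi16 in the chronic libraries (3.11% and 1.98%). In healthy 1, healthy 2 and acute 1 it lay above the highest marker of the library. Free RNA in the droplets gives UMIs to cells that do not make a transcript, and its part in the urothelial values was not tested.

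**Figure D1:**
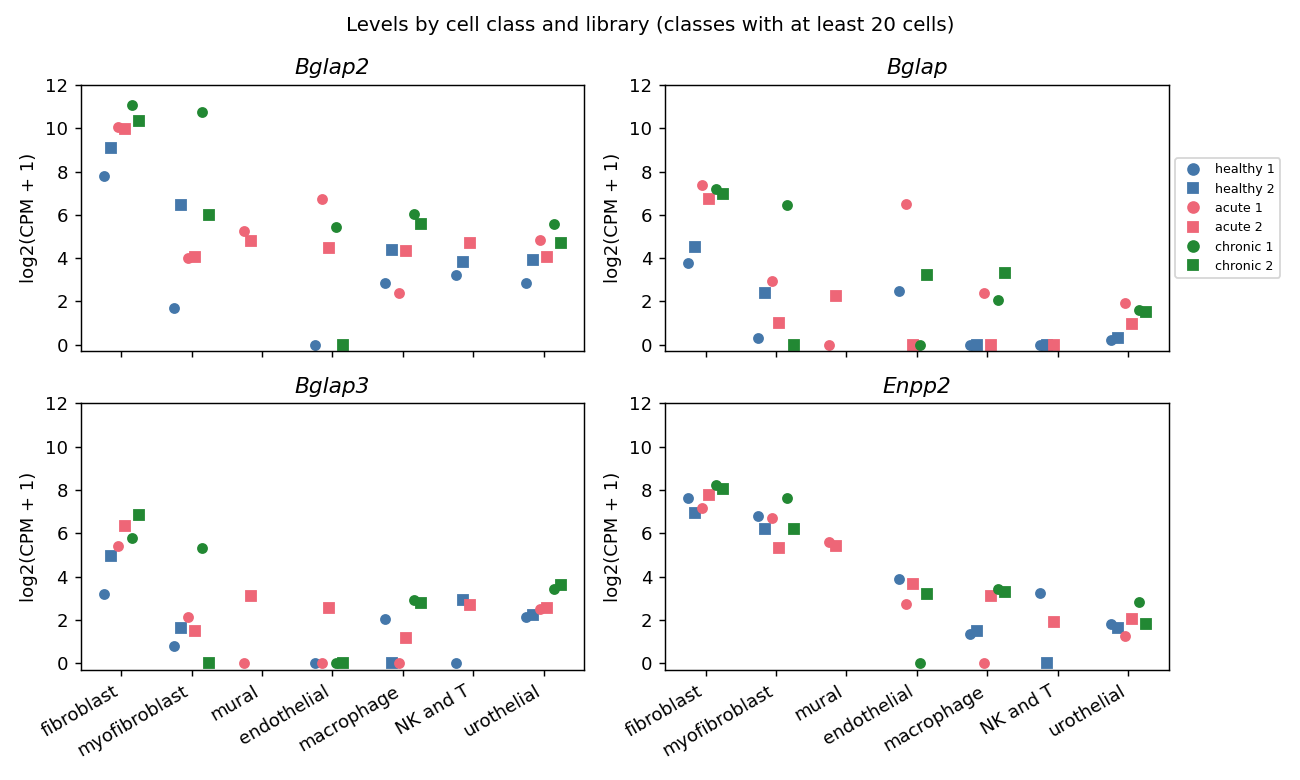
Level of each gene, as log2(CPM + 1) of the UMIs summed per library (vertical axis), in 7 cell classes (horizontal axis). Points are libraries with at least 20 cells of a class, colour gives the condition and shape the replicate. Fibroblasts lie above the other classes for Bglap2 in all 6 libraries, while the myofibroblast points of Bglap2 reach from 2.28 CPM in healthy 1 to 1716 CPM in chronic 1.

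Bglap followed the same classes at a lower count. Its level in fibroblasts was 12.6 and 22.0 CPM in healthy, 165 and 104 CPM in acute and 147 and 125 CPM in chronic libraries. In urothelial cells it ran from 0.152 to 2.77 CPM, or 0.914% to 1.68% of the fibroblast level, within the range of the markers of the library except in acute 1. Natural killer and T cells had 0 Bglap UMIs in the 3 libraries with enough cells, and in the deepest of them 3 UMIs correspond to 8.20 CPM. The unnamed cells held 0 to 120 CPM, the highest in acute 1. Among the named classes outside the mesenchyme the highest value, 89.1 CPM in endothelial cells of acute 1, came from 16 UMIs in 1 cell of 46.

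Bglap3 was spread more widely. In fibroblasts it was at 8.18 and 29.5 CPM in healthy, 41.1 and 79.7 CPM in acute and 54.4 and 113 CPM in chronic libraries. In urothelial cells it was at 3.44 and 3.65 CPM in healthy, 4.61 and 4.84 CPM in acute and 9.79 and 11.4 CPM in chronic libraries. The urothelial level was 6.07% to 42.0% of the fibroblast level, above each of the 7 fibroblast markers in every library. Urothelial cells held from 38.1% to 91.1% of the Bglap3 UMIs of a library, as they also made up most of the cells.

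Enpp2 was found in fibroblasts and myofibroblasts alike. Its level in fibroblasts was 199.7 and 122 CPM in healthy, 143 and 217 CPM in acute and 299.6 and 263 CPM in chronic libraries. In myofibroblasts it was 109.9 and 73.0 CPM in healthy, 104 and 38.5 CPM in acute and 198 and 71.4 CPM in chronic libraries, so that the fibroblast value was the higher in each library. Urothelial cells were at 1.43 to 6.04 CPM, or 0.976% to 2.02% of the fibroblast level. This lay within the range of the 7 markers of the same library except in healthy 2 and acute 1, where it was above the highest marker.

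**Figure D2:**
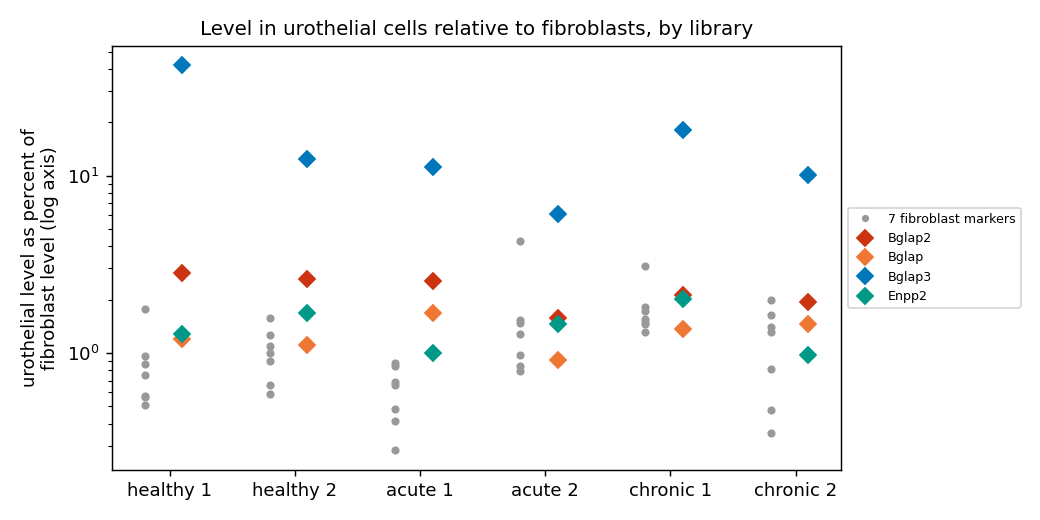
Level in urothelial cells as percent of the level in fibroblasts of the same library (vertical axis, log scale), for the 6 libraries (horizontal axis). Grey points are the 7 fibroblast markers and diamonds the 4 genes. Bglap3 lies above all markers in each library, at 6.07% to 42.0%, while Bglap and Enpp2 lie within the range of 0.283% to 4.27% that the markers span over all libraries.

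Within the fibroblasts, 4 sub-clusters were compared. The one with the highest mean Bglap2 level over the libraries with at least 20 of its cells, sub-cluster 2, was led by Stmn2, Tppp3, Dmkn, Pcolce2 and Mfap5. Its Bglap2 level was 316 and 498 CPM in the healthy libraries, 1345 and 1810 CPM in the acute libraries and 2571.5 CPM in chronic 1. Sub-cluster 1, led by Has1, Mt2, Cxcl1 and Cdkn1a, had 243 and 620 CPM in healthy, 925 and 768 CPM in acute libraries and 2059 CPM in chronic 1. Sub-cluster 3, led by hemoglobin genes and Ccl5, had 88.6 and 647 CPM in healthy, 878 and 550 CPM in acute libraries and 2278 CPM in chronic 1. Sub-cluster 6, led by Inmt and Apoe, had 27.2 and 337 CPM in healthy libraries, 570 CPM in acute 2 and 1194 CPM in chronic 1. The order of the sub-clusters changed between libraries: sub-cluster 2 was highest in healthy 1, both acute libraries and chronic 1, and sub-cluster 3 in healthy 2. Sub-cluster 6 was lowest in 3 of the 4 libraries in which it held at least 20 cells, and in acute 2 sub-cluster 3 was lower, by 550 against 570 CPM. In chronic 2 no sub-cluster held more than 9 cells.

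Enpp2 varied less between the sub-clusters. In healthy 1 it ran from 168 to 256 CPM over the 4 sub-clusters, and in chronic 1 from 269 to 356 CPM. Bglap was highest in sub-cluster 3 in 3 libraries (310.2 CPM in acute 1, 150.3 CPM in acute 2 and 253 CPM in chronic 1) but had 0 UMIs there in healthy 1.

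**Figure D3:**
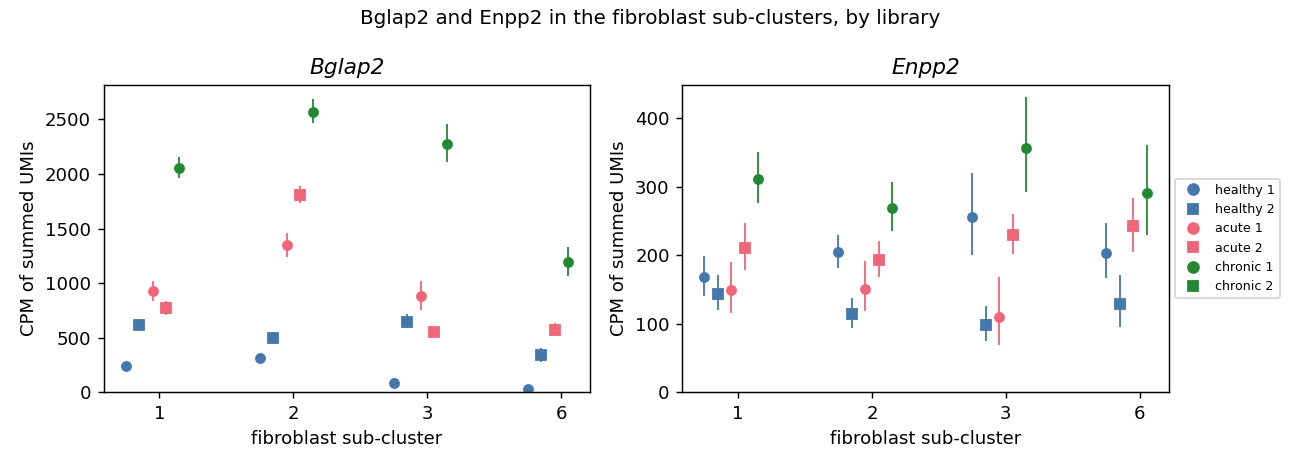
Bglap2 (left) and Enpp2 (right) in the 4 fibroblast sub-clusters (horizontal axis), in CPM of summed UMIs (vertical axis). Points are libraries with at least 20 cells of the sub-cluster, and bars are exact Poisson 95% intervals of the counts, which cover counting error only. Chronic 2 has no points, since no sub-cluster held that many of its cells, and for Bglap2 chronic 1 is the highest library in each sub-cluster, from 1194 to 2571.5 CPM.

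The injury contrasts asked whether the 4 genes differed in fibroblasts after acute or chronic CPP. The rule for the genes did not use these contrasts, but the genes were chosen with earlier results of these data known. Both contrasts share the same healthy libraries. The methods mention batches of libraries that the labels do not identify, so batch and condition cannot be told apart. The summed fibroblast markers were lower in each injured library than in either healthy one, with Pi16, which marks a subset of fibroblasts, at 4614 and 4565 CPM in healthy and 613 to 2413 CPM in injured libraries. None of the 7 markers was called by edgeR in either contrast (Pi16 log2 fold change -1.69, adjusted p = 0.805 in acute, and -1.63, adjusted p = 0.796 in chronic injury), and their part in the results for the 4 genes was not tested. Bglap was higher in fibroblasts of both injured conditions, at 17.3 ± 6.66 CPM (SD, n = 2 libraries) in healthy, 134 ± 43.7 CPM in acute and 136 ± 15.5 CPM in chronic mice. The lowest injured library, at 104 CPM, lay above the highest healthy one, at 22.0 CPM. With 2 libraries a group such separation was common: of the 10900 genes tested, 16.3% had both acute libraries above both healthy ones and 16.1% both below, and for the chronic libraries the shares were 18.7% and 18.4%. In edgeR's quasi-likelihood test over 10900 genes the log2 fold change of Bglap was 2.94 (SE 0.40, Benjamini-Hochberg adjusted p = 0.0258) in acute and 2.93 (SE 0.42, adjusted p = 0.0417) in chronic injury. It was the only one of the 4 genes called in either contrast, where the background of genes called in either direction was 0.0917% (10 of 10900) in acute and 0.0734% (8 of 10900) in chronic injury. Genes called higher made up 0.0826% in acute and 0.0642% in chronic injury, and genes called lower 0.00917% in each.

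The call on Bglap was kept under 11 of 15 alternatives in acute and 10 of 15 in chronic injury, among them DESeq2 (adjusted p = 1.09e-05 and 5.36e-05) and the edgeR fit without a filter on low counts (adjusted p = 0.0084 and 0.0143). It was lost with bias-adjusted deviances in edgeR (adjusted p = 0.0681 and 0.101), a form added after the data were seen because 23.3% of the genes that the main test called in simulated fibroblast data were unchanged ones. It was also lost for acute injury without chronic 1 (adjusted p = 0.222) or chronic 2 (0.26) and for chronic injury without healthy 1 (0.079), chronic 1 (0.612) or chronic 2 (0.413), in edgeR fits that leave 1 library in a group and assume that it varies like the others. The call was lost in both contrasts with only the cells that held more UMIs of fibroblast than of myofibroblast markers. Chronic 2 kept 18 such cells, too few for a sum, so that fit had 1 chronic library. The part of the cell choice and that of the missing library were not tested apart. The log2 fold change stayed between 2.54 and 3.38 in all of these.

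Bglap2 had higher levels in each injured library than in either healthy one, at 386 ± 230 CPM in healthy, 1033 ± 55.6 CPM in acute and 1736 ± 616 CPM in chronic fibroblasts. The groups did not overlap, since healthy 2 at 548 CPM lay below acute 2 at 994 CPM, a separation that 16.3% (acute) and 18.7% (chronic) of all genes tested also had. The log2 fold change was 1.41 (SE 0.45) in acute and 2.098 (SE 0.46) in chronic injury, and neither was called by edgeR (adjusted p = 0.771 and 0.294). The acute value was 0.90 without healthy 1 and 2.20 without healthy 2. In DESeq2 the chronic difference was called, with a log2 fold change of 2.09 and an adjusted p of 0.0128. In edgeR it was called without healthy 2 (2.85, adjusted p = 0.0133), acute 1 (2.07, adjusted p = 0.0376) or acute 2 (2.09, adjusted p = 0.0455). Without healthy 1 (1.56, adjusted p = 0.742), chronic 1 (1.52, adjusted p = 0.612) or chronic 2 (2.45, adjusted p = 0.776) it was not called by edgeR.

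Bglap3 was at 18.8 ± 15.1 CPM in healthy, 60.4 ± 27.3 CPM in acute and 83.5 ± 41.1 CPM in chronic fibroblasts, and the injured libraries lay above both healthy ones, as for 16.3% of all genes in acute and 18.7% in chronic injury. Its log2 fold change was 1.70 (SE 0.55) in acute and 1.78 (SE 0.61) in chronic injury, and edgeR did not call it (adjusted p = 0.781 and 0.818). With 1 library left out the chronic log2 fold change ran from 1.13 to 2.97, the highest without healthy 2. With the replicate number as a block edgeR called the chronic difference, as given at the end. The counts behind Bglap3 were small, 24 and 83 UMIs in the healthy libraries and 9 in chronic 2.

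Enpp2 was at 161 ± 54.8 CPM in healthy, 180 ± 52.1 CPM in acute and 281 ± 26.2 CPM in chronic fibroblasts. The acute libraries overlapped the healthy ones and the chronic libraries lay above them, as for 18.7% of all genes. The log2 fold change was 0.15 (SE 0.36) in acute and 0.73 (SE 0.37) in chronic injury, with edgeR adjusted p-values of 1.00 and 0.982.

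**Figure D4:**
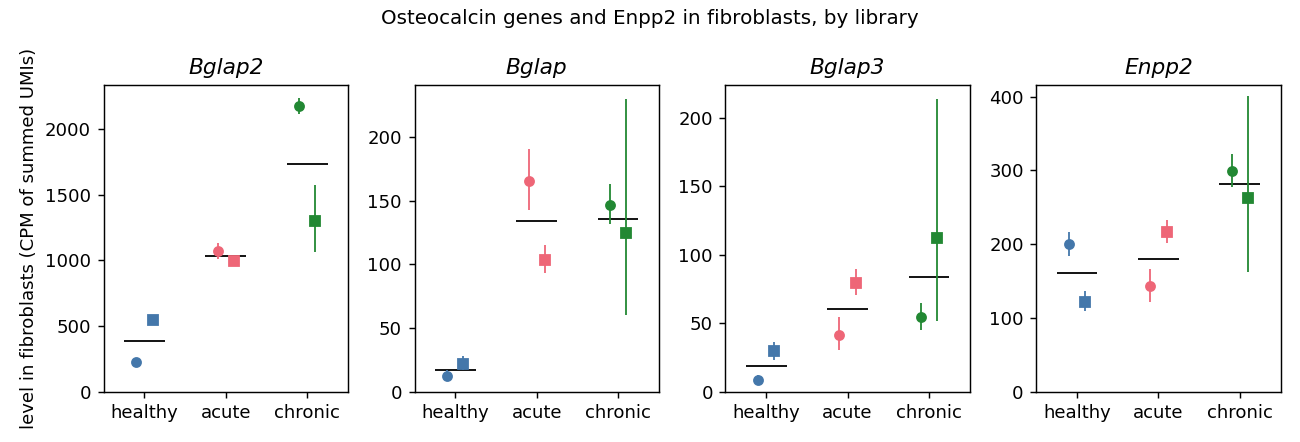
Level of the 4 genes in fibroblasts (CPM of summed UMIs, vertical axis from 0) in healthy, acute and chronic libraries (horizontal axis). Circles are replicate 1 and squares replicate 2 with exact Poisson 95% intervals of their counts, and black lines are group means of 2 libraries. For the 3 osteocalcin genes both injured pairs lie above both healthy libraries, as do 16.3% (acute) and 18.7% (chronic) of all genes tested, and for Enpp2 the acute and healthy libraries overlap.

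The share of fibroblasts with at least 1 UMI was compared after each cell was thinned to 2000 UMIs, since the median depth of fibroblasts ran from 2469.5 to 4476 UMIs. Shallower cells were left out, so that 1290 of 1710 fibroblasts entered in acute 2 and 1079 of 1098 in chronic 1, while the other libraries kept all of theirs. Of the urothelial cells, 5945 of 6571 entered in acute 2. The thinned share with Bglap2 was 13.7% and 28.3% in healthy, 42.8% and 38.7% in acute and 62.5% and 56.9% in chronic libraries. Without thinning it was 21.9% and 36.1%, 55.9% and 42.9%, and 65.7% and 68.0%. The thinned share in urothelial cells, at median depths of 5971.5 to 10852 UMIs, was 0.432% to 5.17%. In the exact two-sided permutation test over libraries the acute difference of 19.7 percentage points and the chronic difference of 38.7 points both had p = 0.333, the smallest p that 2 against 2 libraries allow.

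For Bglap the thinned share was 1.55% and 2.40% in healthy, 13.9% and 8.32% in acute and 14.4% and 11.4% in chronic fibroblasts. For Bglap3 it was 1.00% and 2.77%, 5.71% and 8.90%, and 7.80% and 15.1%. For both genes the injured and healthy libraries did not overlap in either contrast (exact permutation p = 0.333 each). By thinned share 17.3% of the 10900 genes had both acute libraries above both healthy ones, and 23.8% both chronic libraries. For Enpp2 the thinned share was 24.0% and 14.4% in healthy, 16.7% and 24.1% in acute and 31.9% and 30.4% in chronic fibroblasts. Its acute and healthy libraries overlapped (exact permutation p = 0.667) and its chronic libraries lay above both healthy ones (exact permutation p = 0.333). In single fibroblasts with a Bglap2 UMI the mean was 3.62 and 3.32 UMIs in healthy, 6.49 and 4.71 in acute and 6.87 and 6.12 in chronic libraries, without thinning. These p-values were not adjusted for the 8 share comparisons, in which none could pass 0.05.

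Bglap and Bglap3 were detected more often in fibroblasts with a Bglap2 UMI than in other fibroblasts. In thinned fibroblasts of chronic 1, Bglap was found in 19.0% of 667 cells with a Bglap2 UMI and in 5.10% of the other cells. For Bglap3 in the same library the shares were 11.7% and 1.21%. In healthy 2 they were 5.65% against 1.54% for Bglap and 7.80% against 0.329% for Bglap3, and both genes showed the same direction in all 6 libraries. For Enpp2 the shares were 34.0% against 29.9% in chronic 1 and 20.4% against 24.9% in healthy 1, where the order was the opposite. In chronic 2, with 16 and 9 cells, they were 37.5% against 22.2% for Enpp2 and 18.8% against 11.1% for Bglap. All these shares come from 1 random draw for each gene in each cell, a form that is noisy for the 25 fibroblasts of chronic 2. Since Bglap and Bglap2 share most of their transcript, the co-detection of Bglap may include molecules of Bglap2 counted as Bglap, which was not tested.

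The UMIs of Bglap as a percentage of those of Bglap2 in fibroblasts differed between libraries. They came to 5.65% and 4.02% in the healthy, 15.4% and 10.4% in the acute and 6.76% and 9.62% in the chronic libraries, the last from 10 Bglap UMIs. The percentages of the acute libraries were the highest and those of the healthy libraries the lowest.

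In myofibroblasts the Bglap2 level depended on the library. It was 2.28 and 85.7 CPM in healthy, 15.3 and 15.8 CPM in acute and 1716 and 62.5 CPM in chronic libraries, so that both injured groups overlapped the healthy one or held a single high library. The sum of the 7 fibroblast markers in these myofibroblasts was 3583 CPM in chronic 1 and 2791 CPM in healthy 2, against 455 to 793 CPM in the other libraries. Limited to cells with more UMIs of myofibroblast than of fibroblast markers, Bglap2 was at 1.59 and 28.5 CPM in healthy, 13.9 and 12.7 CPM in acute and 192 and 62.5 CPM in chronic libraries. Among the myofibroblast sub-clusters of chronic 1, sub-cluster 8, led by Slc39a1, Abhd2 and Pam, held 3458 CPM in 49 cells and sub-cluster 4, led by Socs1 and Cxcl10, 2173 CPM in 48 cells, the former above each fibroblast sub-cluster. Clustered without integration, the myofibroblasts of chronic 1 held 301 CPM and those of healthy 2 held 38.4 CPM. Of the 4 genes only Bglap2 and Enpp2 passed the filter on low counts among 8313 genes tested in myofibroblasts.

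In edgeR the Bglap2 log2 fold change in myofibroblasts was -1.34 (SE 1.61, adjusted p = 1.00) in acute and 4.44 (SE 1.66, adjusted p = 0.958) in chronic injury. For Enpp2 it was -0.43 (SE 0.58, adjusted p = 1.00) in acute and 0.55 (SE 0.59, adjusted p = 0.974) in chronic injury. Neither gene was called in this fit, and the background of genes called in either direction was 0.0361% in acute and 0% in chronic injury. Without the filter on low counts edgeR called Bglap2 in chronic injury (adjusted p = 0.00378), where chronic 1 alone was high. With 1 library left out the Bglap2 log2 fold change ran from -2.42 to 2.75 in acute and from 0.64 to 8.54 in chronic injury. In chronic injury 406 of the 8313 genes had an unadjusted p under 0.05 and DESeq2 called 15. The difference of the injury effects between fibroblasts and myofibroblasts was tested as an interaction over 10887 genes, and edgeR called 0 of them, or 0%, in either contrast (adjusted p = 1 for each of the 4 genes). An unadjusted p under 0.05 was found for 451 genes (4.14%) in acute and 434 genes (3.99%) in chronic injury. The fibroblast effect minus the myofibroblast effect, on the log2 scale, was 2.51 for Bglap, 1.92 for Bglap2 and 1.76 for Bglap3 in acute injury and -2.39, -2.45 and -2.26 in chronic injury. The unadjusted edgeR p-values were 0.0831, 0.0666 and 0.156 in acute and 0.0285, 0.0211 and 0.0428 in chronic injury. For Enpp2 the differences between the classes were 0.84 and 0.11. Of Bglap, Bglap2 and Bglap3, the myofibroblasts of chronic 1 held 31, 623 and 14 UMIs, and those of chronic 2 held 0, 14 and 0. Only 79 of the 173 myofibroblasts of chronic 1 had more UMIs of myofibroblast than of fibroblast markers.

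The genes of the osteoblast and osteocyte list fell into 5 that were detected in fibroblasts of every library and others that few tables listed or that had few UMIs. The rarest gene listed was found in 0.0958% of cells in healthy 1 and 0.0869% in acute 1, against 0.0066% to 0.0187% elsewhere. A gene that a table does not list may thus have had UMIs there. In the tables that list them, Sp7, which encodes a transcription factor required for osteoblasts, had 14 UMIs in 4 tables, and Dmp1, an osteocyte gene, had 1. Ibsp, bone sialoprotein, had 62 UMIs, of which 61 were in acute 2. Spp1, osteopontin, which macrophages and epithelia also make, had 141 UMIs in 5 tables, and Dlx5, a homeobox gene of bone formation, had 27 in 4. Phex, Mepe and Sost were listed in none of the tables. Of the 14 genes on the osteoblast list 5 were tested in fibroblasts (Runx2, Alpl, Col1a1, Col1a2 and Sparc) and none was called in either contrast. Their median log2 fold change was -0.63 in acute and -0.63 in chronic injury, against -0.01 and -0.03 over all genes tested. Col1a1, a collagen chain of bone and of fibroblasts, was at 1795 to 5715 CPM. Alpl, the tissue-nonspecific alkaline phosphatase, was at 9.88 and 11.7 CPM in healthy, 19.7 and 9.78 CPM in acute and 32.9 and 37.5 CPM in chronic fibroblasts (chronic log2 fold change 1.58, SE 0.45, edgeR adjusted p = 0.588).

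Of the regulators of osteocalcin, Runx2 was at 4.77 and 5.33 CPM in healthy, 9.83 and 10.4 CPM in acute and 5.26 and 25.01 CPM in chronic fibroblasts. It was higher in the myofibroblasts of each library. The values there were 27.4 and 19.0 CPM in healthy, 54.3 and 24.9 CPM in acute and 16.5 and 71.4 CPM in chronic libraries. In fibroblasts its log2 fold change was 0.99 (SE 0.56) in acute and 0.41 (SE 0.71) in chronic injury and was not called. Atf4, which acts with Runx2 on osteocalcin in bone, ran from 218 to 600.2 CPM and was not called either. Vdr, the vitamin D receptor, had 1 UMI in all fibroblasts. For the receptors proposed for osteocalcin, Gprc6a was listed in no table and Gpr158 had 1 UMI in the only table that listed it, chronic 1.

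The mRNAs of proteins that carry the same vitamin K dependent modification were also measured. Of 8 such genes 6 were tested in fibroblasts and none was called, with a median log2 fold change of -0.20 in acute and -0.01 in chronic injury. Mgp, matrix Gla protein, an inhibitor of calcification, was at 5146 and 10499 CPM in healthy, 2575 and 5779 CPM in acute and 2447 and 1801 CPM in chronic fibroblasts. Its chronic libraries lay below both healthy ones, as for 18.4% of all genes (log2 fold change -1.97, SE 0.49, edgeR adjusted p = 0.454). Gas6, a ligand of the TAM receptor kinases, was at 238 and 116 CPM in healthy, 529 and 562 CPM in acute and 599.6 and 738 CPM in chronic fibroblasts. Its log2 fold changes of 1.61 (SE 0.37) and 1.79 (SE 0.38) had edgeR adjusted p-values of 0.286 and 0.278.

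Transcripts of the enzymes of the vitamin K cycle were found in fibroblasts of all libraries. Ggcx, the carboxylase that acts on osteocalcin, was at 13.4 to 62.5 CPM, and Vkorc1, the reductase that recycles vitamin K, at 374 to 529 CPM. All 5 genes of this list were tested and none was called, with a median log2 fold change of -0.18 in acute and -0.23 in chronic injury.

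Around autotaxin, the LPA receptor Lpar1 was at 62.5 to 153 CPM in fibroblasts, and Lpar6 at 0 to 8.77 CPM. Of 6 receptor genes 2 were tested and none was called (median log2 fold change -0.19 in acute and -0.06 in chronic injury). Lipid phosphate phosphatases degrade LPA outside the cell, and of these Plpp3 was at 368 to 517 CPM. All 5 genes of LPA turnover were tested and none was called, with medians of -0.36 and 0.16. Of the 6 other Enpp genes 4 were tested and none was called, with medians of -0.04 and 0.33. Their means over the 6 libraries ran from 10.6 CPM for Enpp4 to 23.6 CPM for Enpp5.

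Of the genes beside the osteocalcin cluster, Paqr6 was also higher in fibroblasts than in urothelial cells in each library. Paqr6, the neighbour of Bglap3, was at 88.9 and 130 CPM in healthy, 104 and 146 CPM in acute and 164 and 75.0 CPM in chronic fibroblasts. In urothelial cells it was at 8.57 and 11.7 CPM in healthy, 25.1 and 23.5 CPM in acute and 31.9 and 24.6 CPM in chronic libraries. Pmf1, the neighbour of Bglap, was at 24.9 to 37.5 CPM in fibroblasts and 21.3 to 54.4 CPM in urothelial cells. The log2 fold changes of Paqr6 in fibroblasts were 0.19 and 0.22 and those of Pmf1 were 0.05 and 0.16, and none of them was called by edgeR (adjusted p = 1.00 each). The pseudogenes Gm21956 and Gm6821, which lie between the osteocalcin genes on the opposite strand, were not analysed here.

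The genes most like Bglap2 were sought among 9442 genes by Pearson correlation of log2(CPM + 1) over 64 sums of a library and a class (14 classes). Among the 5 highest were Clec3b (0.87), Krtdap (0.86), Gjb5 (0.86) and Stmn2 (0.83). Bglap had a correlation of 0.82 with Bglap2, Bglap3 0.79 and Enpp2 0.54. Enpp2 was instead most like Ndn, C1ra, Adamts2, Serpina3n and Ddr2, each at 0.93. The sums share libraries, cells of 1 dissociation and depth, so these values are descriptions without a test.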

How the data were processed

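Droplet-based 3′ single-cell RNA sequencing tables of 6 libraries were used. The authors used Cell Ranger with the build mm10, and the deposited values are UMI counts for each gene in each cell that were not normalized. The cell filter of the study was applied (more than 500 genes, less than 10% of UMIs from mitochondria). Genes were limited to the 14450 listed in all tables, since the table of healthy 1 breaks off in its last line and the tables list different gene sets. Doublet scores came from scanpy's Scrublet (version 1.11.5), of which the top 0.8% per 1000 cells were called, since the automatic threshold called 0 to 6 cells in 5 libraries. The other cells of a cluster made up mostly of called doublets were left out too. Libraries were normalized (sctransform 0.4.2), integrated over 2996 features, that is 3000 less the 4 genes (Seurat 5.3.0, R 4.3.3), and clustered with leidenalg 0.10.2 (resolution 0.8, 20 neighbours, 30 components) in Python 3.11.15. Mesenchymal cells were clustered again over 2000 features. Clusters were named from marker lists, by rules settled after the clusters had been seen. In the mesenchymal sub-clusters a fibroblast or myofibroblast marker counted where its level was over 0.25 of that of its highest sub-cluster. In the main clusters a larger fraction of the level of the highest cluster was required. In both a marker also had to be found in over 10% of the cells.

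For each library, the UMIs of a class with 20 or more cells were added up, without mitochondrial and ribosomal protein genes. The sums were tested with edgeR 4.0.16 (TMM, filterByExpr, quasi-likelihood), Benjamini-Hochberg adjusted at 0.05 over all genes tested. DESeq2 1.42.0 was an alternative. In simulated fibroblast data edgeR recovered 64.9% of 4-fold and 3.13% of 2-fold changes. In the calls made there, 23.3% were unchanged genes, which led to the bias-adjusted form of the test being added after the data were seen. Shares of cells were thinned to 2000 UMIs of all genes, as the expected share over all draws, and compared with exact permutation tests. This form was chosen after single draws had proved noisy for the 25 fibroblasts of chronic 2. The co-detection shares do not use it and come from 1 random draw for each gene in each cell. Intervals cover counting error only. The members and lists were chosen with earlier results of these data known. Named genes are the 4 members, genes of the lists that carry a described role, the 5 genes most like Bglap2 and Enpp2, the 5 leading genes of the sub-cluster highest in Bglap2, and the cluster's neighbours; some genes that this rule names are not reported here. Other genes named for sub-clusters were chosen after their values were seen. Transcripts were those of GENCODE M21 (GRCm38).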

Additional observations from a re-analysis of the deposited data

How the results depend on the processing

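The direction of the log2 fold changes of Bglap, Bglap2 and Bglap3 in fibroblasts held under all 15 alternatives of the edgeR fit. The number of genes called in fibroblasts was 10 in acute and 8 in chronic injury. It was 21 and 28 with DESeq2, 20 in acute injury without the filter on low counts and 4 in chronic injury with bias-adjusted deviances. Fewer were called with cells holding more of their own markers, a fit that also left out chronic 2 and so had 1 chronic library. Leaving out 1 library gave 0 to 107 genes in acute and 1 to 50 in chronic injury. In myofibroblasts, 3 in acute and 0 in chronic injury became 7 and 15 with DESeq2, 47 and 25 without the filter, and 0 in acute injury without integration or with own-marker cells, and 0 to 18 and 0 to 2 when 1 library was left out.

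For Bglap the log2 fold change was 2.94 and 2.92 with bias-adjusted deviances (edgeR adjusted p = 0.0681 and 0.101). In own-marker fibroblasts, where chronic 2 was left out and 1 chronic library remained, it was 2.85 and 3.02. With 1 library left out it ran from 2.58 to 3.38 in acute and from 2.54 to 3.34 in chronic injury, with adjusted p-values of 0.00123 to 0.26 and 0.000517 to 0.612. Bglap2 in chronic injury was 2.09 with DESeq2 (adjusted p = 0.0128) and 1.52 to 2.85 with 1 library left out, and Bglap3 ran from 1.13 to 2.97. In acute injury Bglap2 ran from 0.90, without healthy 1, to 2.20, without healthy 2, and Bglap3 from 1.05 to 2.89 without the same libraries. In myofibroblasts chronic Bglap2 was 4.39 without the filter (edgeR adjusted p = 0.00378), where 1 library, chronic 1, was high, and ran from 0.64 without chronic 1 to 8.54 without healthy 2. Enpp2 in acute fibroblasts ran from -0.19 to 0.55 with 1 library left out and turned negative without healthy 2 (-0.16) or acute 2 (-0.19). Its thinned share, at 1.16 percentage points, was -2.08 without thinning and -3.65 to 5.97 with 1 library left out. In acute myofibroblasts Bglap2 was 0.30 in own-marker cells and ran from -2.42 to 2.75 with 1 library left out (2.75 without healthy 2), and Enpp2 from -1.26 to 0.18 (0.18 without acute 2). In chronic myofibroblasts Enpp2 ran from -0.42, without chronic 1, to 1.02. The cause of these changes was not tested.

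With the replicate block, 29 genes were called in acute and 20 in chronic fibroblasts. Bglap stayed called (adjusted p = 0.00712 and 0.0184 in edgeR), and Bglap3 was called in chronic injury (2.23, adjusted p = 0.0412). Same-numbered libraries deviated together only for healthy and acute (r = 0.35 over 10900 genes) and not for healthy and chronic (-0.12) or acute and chronic (-0.06), so the numbers are not taken to pair libraries. Depth limits Bglap3 and all values of chronic 2, where 3 UMIs in fibroblasts are 37.5 CPM.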
